A study of Homo sapiens with 52 samples.

Results

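The 13 single KBM7 cells with the most contact between the genome and the nuclear lamina were compared with the 13 cells with the least, out of 51 cells measured by Lamin B1 DamID. Per cell, the share of 100 kb bins with a ratio of observed to expected signal (OE) of at least 1 was computed, and the sets were selected on this measured share. It was taken over the 26584 bins that hold a value in every cell, on all sequences in the file. The difference in contact share between the sets therefore follows from how they were chosen. It and all that is derived from it are descriptions of these cells, with no test. The question was which chromosomes, regions and classes of bins held the extra contacts, and how far these went with sequencing depth. The remaining 25 cells, in neither set, served as the common yardstick.

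The nuclear lamina is a meshwork of lamins that lines the inner nuclear membrane. Large stretches of chromatin, called lamina-associated domains, lie against it and are mostly gene-poor and transcriptionally silent. In a population of cells some domains touch the lamina in nearly every cell and others in only a fraction of cells. DamID uses Dam, a bacterial enzyme that methylates adenines. Fused to a lamina protein, it marks the DNA that comes near, so the signal of a cell is a record of contacts during the time of induction.

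KBM7 is an established cell line from a human chronic myeloid leukaemia. All cells came from 1 clone, clone 14, with ploidy 2N, carried the LaminB1 fusion of Dam and were induced with 0.5 nM Shield1, a compound that stabilises such fusions, for 15 h. They were sorted singly from the smallest 2% of the cells that were positive for both Fucci markers, reporters of cell cycle phase, and their DNA was amplified with 21 PCR extension steps. The labels describe 52 cells in 1 group with no control group; cell 47 was not analysed here. Since the labels name no independent cultures, all cells are treated as 1 sample, and every SD below is a spread between single cells. The label could be checked only against the DamID values themselves, since no gene expression was measured. Reads recovered from the ratios (the processing summary says how) ranged from 50978 to 316463 per cell, with a median of 142540.

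Among the high-contact cells, the contact share ranged from 34.6% to 39.9% with a median of 36.1%. The low-contact cells ranged from 24.1% to 28.8% with a median of 27.6%. The means were 36.2% ± 1.56 (SD, n = 13) and 27.2% ± 1.33 (SD, n = 13), and the other 25 cells lay between 28.8% and 34.4%. An average high-contact cell thus had 9616 bins in contact and an average low-contact cell 7241, a difference of 8.93 percentage points or 2375 bins. These 2375 bins per cell are called the extra contacts below. Cells 26, 46 and 45 had the highest shares, with 39.9%, 38.1% and 37.1%. Cells 42, 43 and 18 had the lowest, with 24.1%, 25.9% and 26.1%. The series of 51 cells was continuous at both borders of the sets. Cell 1 was the last of the high-contact cells at 34.63% and cell 38 the first outside them at 34.36%, while cell 29 at 28.81% was inside the low-contact set and cell 44 at 28.84% outside it.

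Depth moved with the selected share. Bins at an OE of 0, used as a stand-in for depth, made up 34.6% to 48.0% (median 42.6%) in the high-contact cells and 50.7% to 62.7% (median 58.2%) in the low-contact cells. The sets did not overlap in this measure, with a mean difference of -15.2 points (high minus low). Recovered reads ranged from 142900 to 316463 (median 192124) in the high-contact cells. In the low-contact cells they ranged from 50978 to 146696 (median 96876), and the ratio of the means was 2.00. Here the sets overlapped, with 1 low-contact cell above the shallowest high-contact cell. Reads correlated with the contact share over the 51 cells (Pearson's r = 0.710, Spearman's rho = 0.706). Over the 51 cells the contact share correlated with the share of bins at 0 (Pearson's r = -0.859, Spearman's rho = -0.884), and r was -0.877 without the 2 cells farthest from the median. Both measures come from the same ratios, and a bin at 0 cannot be in contact, so this relation is partly built in. What part of the difference came from depth was not tested. Depth was set beside it in 3 ways, all of which compare cells picked on the contact share itself. In the first, the thinned reads are a part of the reads that ranked the cells. In the last 2, the direction was fixed by the selection. All 3 therefore describe sizes only.

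First, the reads of every cell were thinned at random to the 50978 reads of the shallowest cell. After thinning, the same cells had contact shares of 33.4% ± 0.923 and 26.5% ± 1.30 (SD, n = 13 each), a difference of 6.89 points, and the sets still did not overlap. The shares before and after thinning correlated over the 51 cells with an r of 0.993, and a new ranking on thinned reads kept 12 of the 13 high-contact and all 13 low-contact cells. Thinned shares still moved with the deposited depth, with an r of 0.660 with reads. Bins at 0 also still differed, with 52.6% ± 2.22 and 62.4% ± 1.87, so at equal reads the signal of high-contact cells was spread over more bins.

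Second, cells of both sets with 120000 to 170000 reads were set side by side, a range chosen after the depths were seen. The 4 high-contact cells in it had a contact share of 35.3% ± 0.838 (SD, n = 4) and the 5 low-contact cells one of 27.2% ± 2.07 (SD, n = 5), a difference of 8.06 points. Within this range, cell 5 with 142900 reads had 34.7% of bins in contact and cell 41 with 142540 reads had 28.5%. Cell 1 with 145931 reads had 34.6% and cell 43 with 146696 reads had 25.9%. That the shares of such a pair differ follows from the selection of the sets; the pairs show only that cells of nearly equal depth were found in both. They were chosen after their values were seen, and cells 5 and 41 are named for their near-equal depth only.

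Last, the 51 cells were split by depth into 3 groups of 17, and inside each the top 4 and bottom 4 cells by contact share were taken. In the groups by the share of bins at 0, the contact share of these cells differed by 4.30 to 6.11 points. In the groups by reads it differed by 5.26 to 8.21 points. By the share of bins at 0 this split hardly mixed the sets, since all 13 high-contact cells fell in the group with the fewest bins at 0 and 12 of the 13 low-contact cells in the group with the most.

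**Figure D1:**
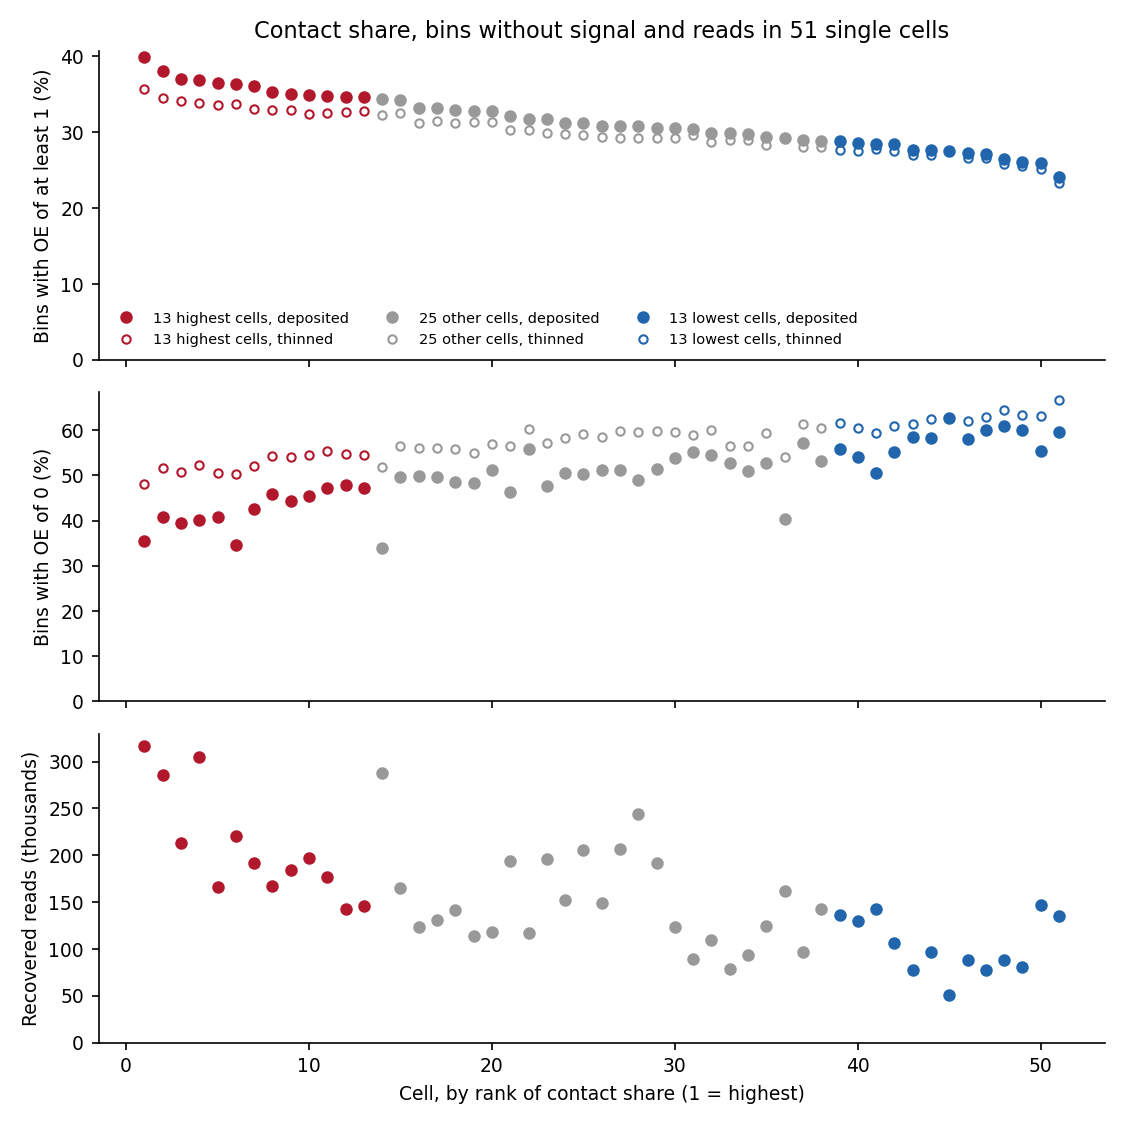
The 51 cells are ordered by contact share on the horizontal axis, with high-contact cells in red, low-contact cells in blue and the other 25 in grey. From top to bottom, the vertical axes give the percentage of bins with an OE of at least 1, the percentage at an OE of 0 (filled for deposited values, open after thinning to 50978 reads) and the recovered reads. The red and blue cells stay apart after thinning, and reads decline unevenly from left to right, with low-contact cells of up to 146696 reads.

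The high-contact cells had more bins at low and middle signal and fewer at the highest signal. Bins with an OE from 1 to under 2 made up 15.2% ± 2.17 of all bins in the high-contact cells and 8.87% ± 0.923 in the low-contact cells (SD, n = 13 each). Those from 2 to under 4 made up 19.3% ± 1.11 and 11.6% ± 1.12. Bins with an OE of 4 or above went the other way, with 1.70% ± 0.861 in the high-contact and 6.80% ± 0.657 in the low-contact cells. The sets did not overlap in any of these bands, before or after thinning. The median OE of contacted bins was 1.98 to 2.34 in the high-contact cells and 2.54 to 2.94 in the low-contact cells, again without overlap. Over the 51 cells, which share the ratios behind both measures, it correlated with the contact share with an r of -0.931.

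This opposite movement is bounded by the scaling of the ratios. The mean OE of a cell over all bins was 0.934 ± 0.00999 in the high-contact and 0.917 ± 0.0175 in the low-contact cells, and 0.888 to 0.974 over all 51. With nearly the same mean in every cell, the ratios give how a cell's signal was spread over bins and not the amount of methylation per cell. In the low-contact cells it was concentrated in fewer bins at a higher OE. Reads in bins that none of the other cells contacted, a measure of background, made up 1.62% to 4.62% (median 2.78%) of the reads of high-contact cells. In the low-contact cells they made up 0.530% to 3.21% (median 1.15%), and the sets overlapped. The part of background in the contact share was not tested.

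To see which bins took up the extra contacts, bins were put in classes by how many of the other 25 cells contacted them, so that the compared cells had no part in defining the classes. Bins of intermediate frequency held the largest part of the extra contacts. The 5141 bins contacted in over 20% and under 80% of the other cells were 19.3% of all bins and held 50.0% of the extra contacts. High-contact cells had contact in 57.6% to 71.9% (median 62.6%) of these bins and low-contact cells in 33.9% to 44.4% (median 40.8%). The means were 63.7% ± 3.90 and 40.6% ± 3.18 (SD, n = 13 each), a difference of 23.1 points without overlap.

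Frequently contacted bins came next. The 5838 bins contacted in at least 80% of the other cells made up 22.0% of all bins and held 34.4% of the extra contacts. Their contact share was 94.9% ± 2.17 in the high-contact cells and 80.9% ± 5.19 in the low-contact cells, again without overlap. Even the 939 bins that all other cells contacted were at 88.7% ± 4.93 in the low-contact cells, with a lowest value of 76.9%, and at 97.4% ± 1.87 in the high-contact cells.

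Rarely contacted bins took little of the difference for their number. The 15605 bins contacted in at most 20% of the other cells included 1985 at 0 in every cell, which could hold no contact. Together the 15605 bins were 58.7% of all bins and held 15.6% of the extra contacts. Of these, the 3945 bins with contact in at least 1 other cell were contacted in 17.3% ± 5.28 by high-contact cells and in 9.05% ± 3.47 by low-contact cells. The 11660 bins without contact in any other cell were at 0.997% ± 0.636 and 0.591% ± 0.364, which made up 1.99% of the extra contacts, and the sets overlapped in both classes. In relative terms the rare bins differed most, by a ratio of 1.87, against 1.57 for intermediate and 1.17 for frequent bins.

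The difference rose and fell along the frequency scale. It was 21.0 points in bins contacted in over 20% to 40% of the other cells, 24.9 points in those at over 40% to 60% and 23.6 points in those at over 60% to under 80%. Towards both ends it was smaller, with 8.21 points at over 0 to 20% and 15.0 points at 80% to under 100%. On the odds scale, which allows for shares near 0% or 100%, the order was different. The odds of contact were 2.10 times as high in the high-contact cells at over 0 to 20%, 2.79 times at over 40% to 60% and 4.40 times at 80% to under 100%. This rise was not seen after thinning, where the odds ratios of the same classes were 2.10, 2.14 and 1.82. It was present in cells with 120000 to 170000 reads, with odds ratios of 1.65, 2.38 and 4.46.

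Thinning thus changed how the extra contacts were divided over the classes. With classes taken from the thinned other cells, intermediate bins held 55.3% of the extra contacts, frequent bins 21.2% and rare bins 23.6%. In the frequent bins the means were then 88.0% ± 2.74 and 80.2% ± 4.96 and the sets overlapped, with 6 low-contact cells at or above the lowest high-contact cell. In the intermediate bins they were 60.7% ± 1.91 and 43.8% ± 3.11, without overlap. In cells with 120000 to 170000 reads, frequent bins held 41.3% and intermediate bins 47.9% of the extra contacts. The share in frequent bins thus lay between 21.2% and 41.3% depending on how depth was treated, and the share in intermediate bins between 47.9% and 55.3%.

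At the deposited depth, the signal in these classes showed the same shift from concentrated to spread. In the bins that all other cells contacted, the mean OE was 2.67 ± 0.236 in the high-contact and 3.33 ± 0.274 in the low-contact cells. In bins contacted by over 40% to 60% of the other cells it was 1.50 ± 0.0570 and 1.21 ± 0.127. At over 0 to 20% it was 0.518 ± 0.105 and 0.311 ± 0.101. An OE of 0, which means no read, was found in 4.55% ± 1.71 of bins of the middle class in the high-contact cells. In the low-contact cells it was found in 25.7% ± 6.63. Bins at 0 served above as a stand-in for depth, and the mean reads of the sets differed by a ratio of 2.00. Mean OE and the share at 0 were not computed for these classes after thinning. The part of depth in them was therefore not tested. The most frequent bins still held 65.3% of all contacts of the low-contact cells, counting those at 80% and above, and 57.6% of those of the high-contact cells.

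**Figure D2:**
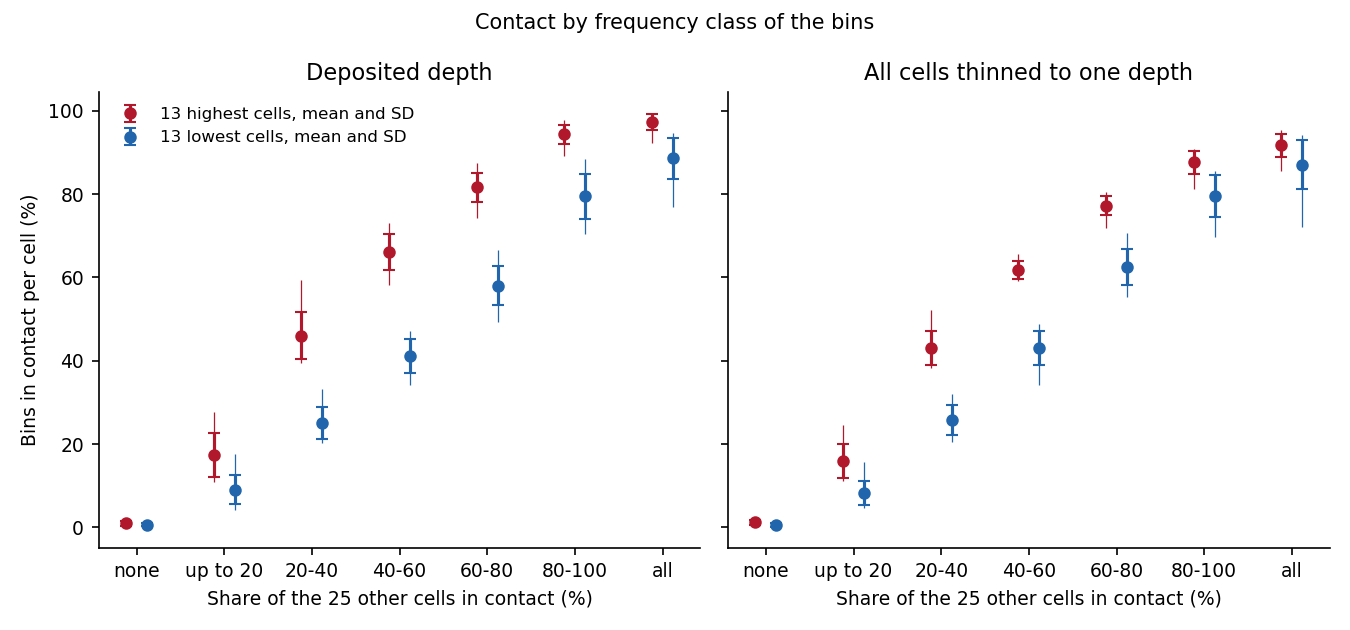
Points give the mean share of bins in contact per cell (vertical axis, %) in each class of bins by the share of the other 25 cells in contact (horizontal axis), red for the 13 high-contact and blue for the 13 low-contact cells. Thick bars are 1 SD and thin lines run from the lowest to the highest cell; the left panel shows the deposited values and the right panel all cells thinned to 50978 reads. The gap is widest in the middle classes in both panels and narrows more at the right end after thinning.

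The extra contacts were spread over the whole genome. The mean contact share was higher in the high-contact cells on all 22 chromosomes and joined chromosomes, by 0.676 to 15.4 points. Ranking cells on all bins lets each chromosome add to its own difference, so cells were also ranked without the chromosome examined. All 22 differences kept their direction, from 0.676 to 14.1 points, as they did after thinning and in cells with 120000 to 170000 reads. The sizes changed more in the latter (4 high-contact and 5 low-contact cells), with differences from 0.382 to 17.3 points. There chromosome 3 fell from 7.90 to 0.382 points and chromosome 16 from 6.56 to 2.52 points, both named after their values were seen. No chromosome parted the sets. They did not overlap on 0 of the 22 (0%), so each chromosome had at least 1 low-contact cell at or above the lowest high-contact cell.

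Chromosome 13, an acrocentric and gene-poor chromosome, differed most. Its contact share ranged from 31.0% to 50.8% (median 42.0%) in the high-contact cells and from 10.4% to 37.7% (median 28.4%) in the low-contact cells. The sets overlapped, but 9 of the 13 high-contact cells lay above every low-contact cell and 11 low-contact cells lay below every high-contact cell. Means were 40.8% ± 6.09 and 25.4% ± 7.83 (SD, n = 13 each), a difference of 15.4 points. With cells ranked without chromosome 13 the difference was 14.1 points, after thinning 13.1 points, and in cells with 120000 to 170000 reads 17.3 points. The chromosome has 3.62% of the bins and held 6.23% of the extra contacts.

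Chromosomes 21, 6, 18 and 10 followed. Chromosome 21, also acrocentric, had 30.6% ± 6.99 in the high-contact and 18.6% ± 7.06 in the low-contact cells, a difference of 12.0 points. On chromosome 6 the shares were 42.2% ± 3.45 and 30.6% ± 5.55. There 12 of the 13 high-contact cells lay above every low-contact cell, and the chromosome's share correlated with that of all other chromosomes with an r of 0.784 over the 51 cells, the highest of the 22. Chromosome 18, gene-poor and usually found at the nuclear periphery, had 53.1% ± 3.86 and 41.6% ± 4.78, a difference of 11.5 points. Chromosome 10 had 34.0% ± 4.05 and 23.3% ± 6.16, a difference of 10.7 points. All 4 differences were smaller after thinning, from 8.60 to 9.62 points.

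The 3 chromosomes that differed least had little lamina contact in both sets. On chromosome 17 the shares were 11.9% ± 2.95 and 8.27% ± 2.58, a difference of 3.59 points. Chromosome 19, the most gene-rich human chromosome, had 2.32% ± 2.32 in the high-contact and 0.865% ± 1.16 in the low-contact cells. The joined chromosome 22:9, with 148 measured bins, had 0.832% ± 0.962 and 0.156% ± 0.296. On the last 2 the spread between cells was as large as the difference, and only 4 of the 13 high-contact cells exceeded the median of the other cells. In the cells with the most contact elsewhere, 19 and 22:9 were still contacted in under 8% of their bins.

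The size of the difference on a chromosome went partly with the kinds of bins it holds. For each chromosome the difference was computed that it would have if its bins differed like the average bin of their frequency class, a comparison chosen after the data were seen. Over the 22 chromosomes this value and the measured difference had Pearson's r = 0.854 and Spearman's rho = 0.590, as a description of 22 points from the same cells. On 15 of them both lay within 2 points. Many chromosomes also lay within 2 points of the plain mean difference of 8.93 over all bins, so this count says little about the classes. Chromosome 18 had 11.5 points against 11.4 from its classes, and chromosome 17 had 3.59 against 4.05. Chromosome 13 had 15.4 against 11.1 and chromosome 21 had 12.0 against 8.87, more than their bins' classes gave. Chromosome 4, named after its values were seen, had 8.31 against 11.0, less than its classes gave.

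In absolute terms chromosome 2 held the most extra contacts, 10.1% of them with 8.95% of the bins, and chromosome 6 followed with 8.22% and 6.32% of the bins. Chromosome 1, with 8.48% of the bins, held 6.53%, and chromosomes 3, 4 and 5 also held less than their share of the bins. These large chromosomes other than 6 are named after their values were seen. Single high-contact cells exceeded the median of the other cells on 14 to 20 of the 22 chromosomes. Single low-contact cells lay below it on 14 to 22. The extra contacts of a high-contact cell and the missing contacts of a low-contact cell were thus shared by most chromosomes, but not evenly. In cell 42, the lowest of all, chromosome 5 alone made up 24.9% of the bins missing against the mean of the other cells, with contact in 10.2% of its bins and a median of 36.9% in the other cells. In the high-contact cells the chromosome with the most extra bins held 10.1% to 19.0% of a cell's excess.

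**Figure D3:**
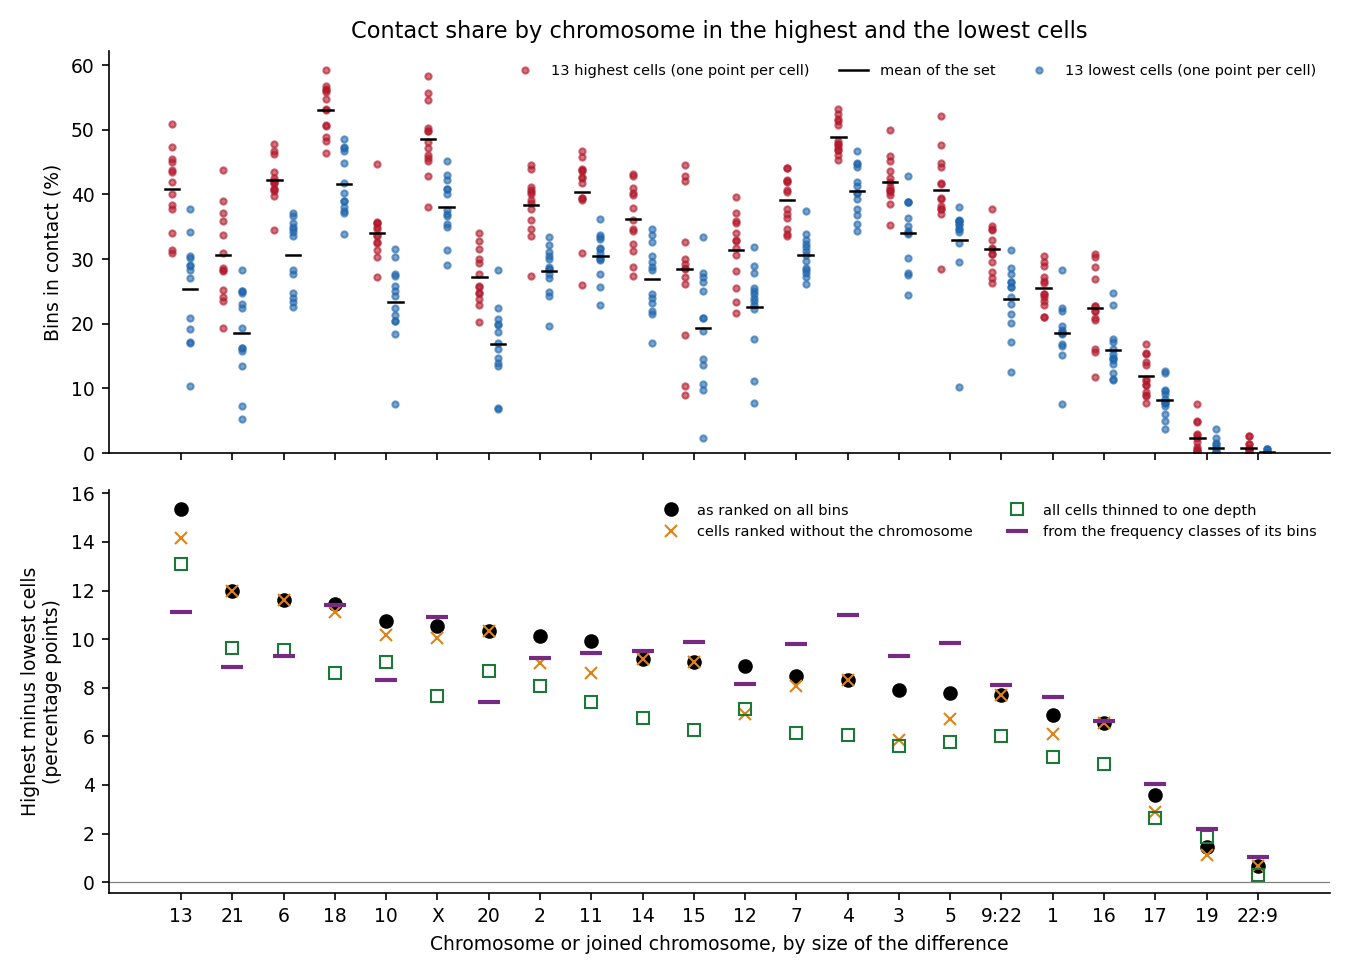
In the upper panel each point is the contact share (% of bins) of a chromosome in a single cell, red for the 13 high-contact and blue for the 13 low-contact cells, with black lines at the means. In the lower panel the difference of the means (percentage points) is given as ranked on all bins (black), with cells ranked without the chromosome (orange), after thinning (green) and as computed from the frequency classes of its bins (purple). All values lie above 0, chromosome 13 stands highest at 15.4 points, and red and blue points overlap on every chromosome.

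The cells of a set were not alike. Among the high-contact cells the contact share went with depth, with r = 0.855 between share and reads over the 13 cells, while among the low-contact cells r was -0.00510; both are descriptions of cells chosen at the ends of the range. Cell 26 had the most reads, 316463, the lowest median OE of contacted bins, 1.98, and the highest share of reads in bins that none of the 25 other cells contacted, 4.62%. It also had the highest share of all high-contact cells on chromosomes 13, 6, X, 12, 7, 4, 3, 5, 16 and 19. Cell 46 had 285619 reads and a median OE of 2.13, with 3.31% of reads in such bins. Cell 45 had 212898 reads and exceeded the median of the other cells on 14 chromosomes, the fewest of the high-contact cells, although its share was the third highest.

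The lowest cells were not the shallowest. Cell 42 had 134913 reads and cell 43 had 146696, above the median of 96876 reads of their set, and cell 18 had 80662. The shallowest cell, cell 9 with 50978 reads, had a contact share of 27.6%, near the middle of the low-contact set. Cell 42 had the highest median OE of contacted bins, 2.94, and the fewest runs of contact, 1181, at a mean length of 0.544 Mb, the longest of the low-contact cells. It had the lowest share of its set on chromosomes 2, 5, 10, 14 and 15, with 19.6%, 10.2%, 7.57%, 17.0% and 2.31% of bins in contact. Cell 43 was lowest on chromosomes 4 and 6, with 34.3% and 22.6%, and cell 18 on chromosomes 1, 12 and 20, with 7.54%, 7.78% and 6.83%. Counted as bins missing against the mean of the other cells, the leading chromosome was 5 in cell 42, 2 in cell 43 and 1 in cell 18. It held 24.9%, 16.6% and 24.3% of the missing bins of these cells. In the low-contact cell with the most even deficit, cell 39, all 22 chromosomes lay below the median of the other cells. Cells 9 and 39, and the chromosomes in these 2 paragraphs that were not named above, were singled out after their values were seen.

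Regions were examined in 2668 aligned windows of 1 Mb with at least 5 measured bins. Differences ran almost wholly in the selected direction. In 410 windows (15.4%) the contact share was at least 20 points higher in the high-contact cells, and in 0 (0%) it was at least 20 points lower. By any amount, 1864 windows (69.9%) were higher, 158 (5.92%) lower and 646 showed no difference. The 410 windows held 46.6% of the extra contacts, and in the other cells their median contact frequency was 54.4% (quartiles 36.4% and 72.0%). After thinning, 252 of all 2668 windows (9.45%) were at least 20 points higher. Of the 410, 409 were then still higher and 233 still by at least 20 points. The 410 were selected on reads that include the thinned ones, so their direction after thinning is only a description. On chromosome 13, 34.4% of the windows belonged to the 410. On chromosome 20 (named after its values were seen) 28.3% did, on chromosome 6 24.4%, on chromosome 21 22.2%, on chromosome 10 21.2% and on chromosome 18 21.1%. On chromosome 17 the share was 7.69%, on chromosome 19 1.79% and on 22:9 0%.

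The window with the largest difference was chromosome 11 from 131000001 to 132000000 (hg19, as are all positions here). Its 10 bins were contacted in 50% to 100% (median 90%) in the high-contact cells and in 0% to 90% (median 30%) in the low-contact cells. The means were 83.8% ± 15.6 and 33.8% ± 32.3 (SD, n = 13 each). No high-contact cell lacked contact there, while 4 low-contact cells had none in any of the 10 bins. The other cells, at 60.8% ± 31.6, lay between.

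On chromosome 5 the window from 20000001 to 21000000 was contacted in 50% to 100% (median 80%) by high-contact cells and in 0% to 70% (median 30%) by low-contact cells, with means of 80.0% ± 14.1 and 32.3% ± 20.5. It is a gap between regions that nearly all cells contacted, as the profiles around the windows show. High-contact cells filled more of it, with 12 of 13 in contact over more than 50% of the window against 2 of 13 low-contact cells. Only 2 high-contact and 0 low-contact cells were in contact over the whole window. The window of chromosome 12 from 41000001 to 42000000 had 84.6% ± 21.8 and 37.7% ± 29.5, and here the other cells, at 71.2% ± 29.6, were closer to the high-contact cells. On chromosome 6, from 46000001 to 47000000, the shares were 79.2% ± 18.9 and 33.1% ± 23.6. This difference of 46.2 points was the same after thinning.

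The window of chromosome 10 from 67000001 to 68000000 had 66.9% ± 25.3 and 23.1% ± 21.8 and lies at the edge of a frequently contacted region. On chromosome 13, from 84000001 to 85000000, the shares were 82.3% ± 23.5 and 38.5% ± 37.4. There 7 high-contact cells were in contact over the whole window and 4 low-contact cells over none of it. In all 6 windows the sets overlapped, and the differences were 37.7 to 46.2 points after thinning and 21.5 to 63.0 points in cells with 120000 to 170000 reads. They were chosen for the size of their difference among 2668, which makes these sizes larger than those of windows chosen otherwise.

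Windows with more contact in the low-contact cells had small differences, wide spreads and low frequencies. Only 3 windows were lower in the high-contact cells by at least 10 points. On chromosome 18, from 52000001 to 53000000, high-contact cells ranged from 0% to 30% (median 10%) and low-contact cells from 0% to 70% (median 10%). The means were 11.5% ± 10.7 and 25.4% ± 24.7. The medians were equal, and 2 low-contact cells but no high-contact cell had contact over more than 50% of the window. On chromosome 3, from 139000001 to 140000000, the means were 18.5% ± 25.4 and 30.8% ± 33.3, and 8 high-contact and 4 low-contact cells had no contact. The window of chromosome 4 from 107000001 to 108000000 had 16.9% ± 18.4 and 27.7% ± 28.0, and that of chromosome 5 from 65000001 to 66000000 had 3.08% ± 6.30 and 10.8% ± 13.8. In the order given, the differences were -13.8, -12.3, -10.8 and -7.69 points. After thinning they were -11.5, -13.8, -3.85 and -3.08 points, and in cells with 120000 to 170000 reads -14, -52.5, -7 and -4 points.

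**Figure D4:**
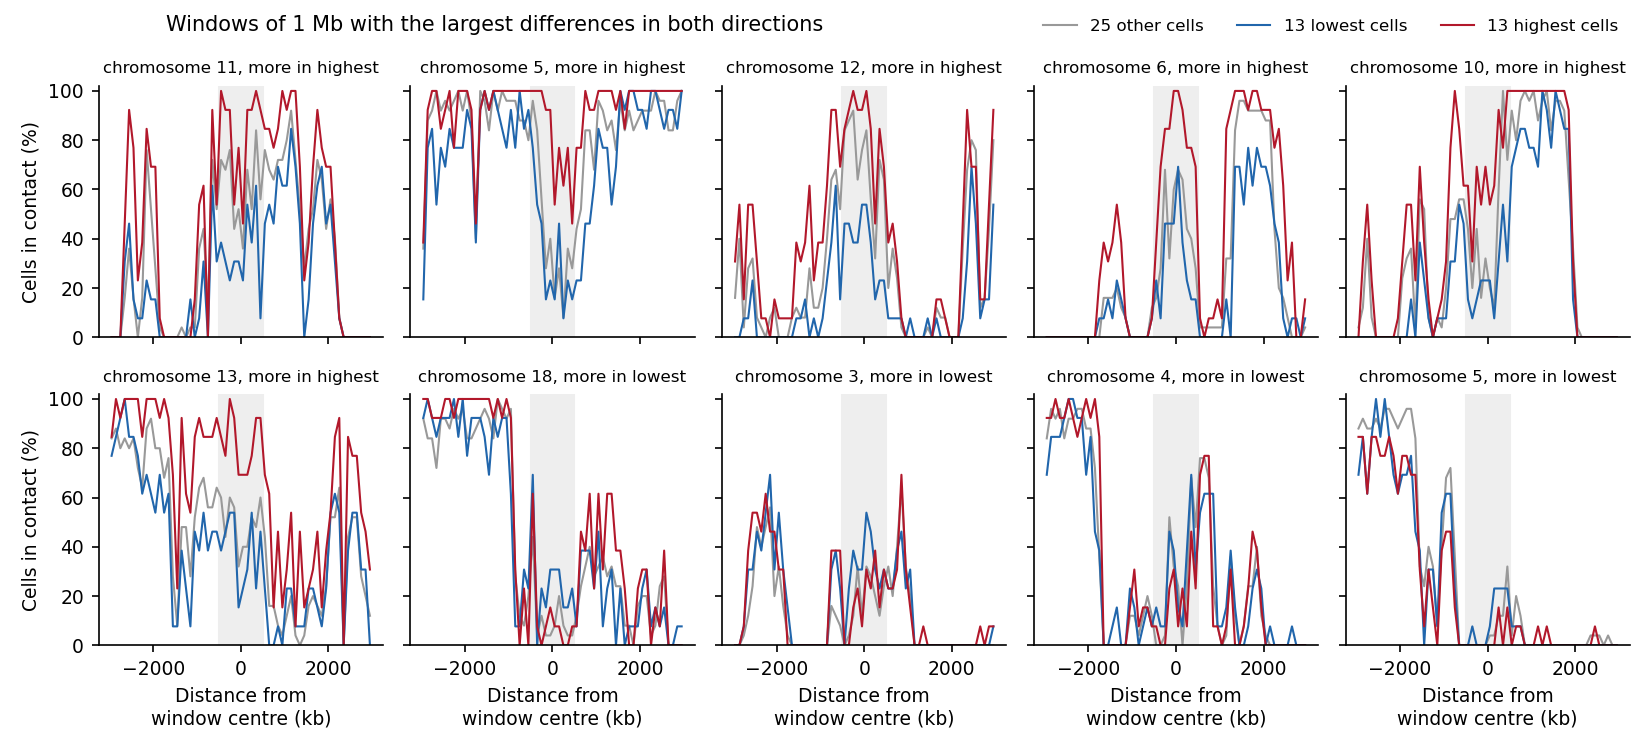
Each panel shows the share of cells in contact (vertical axis, %) in 100 kb bins around a 1 Mb window (grey band), against the distance from its centre in kb, for the 13 high-contact (red), 13 low-contact (blue) and 25 other cells (grey line). The first 6 panels are the windows with the largest differences, where red lies above blue through the band, and the last 4 those with more contact in the low-contact cells. In the chromosome 5 panel of the first row the band is a gap between frequently contacted regions that red crosses at a higher level, and in the last 4 panels blue lies above red on average within the band, while beside it the lines cross.

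Extra contacts clustered around the frequently contacted bins. Bins outside these but within 500 kb of the nearest were 17.6% of all bins and held 33.0% of the extra contacts, or 35.7% after thinning. At 100 kb from a frequent bin the contact share was 71.5% ± 4.35 in the high-contact and 49.1% ± 3.02 in the low-contact cells, a difference of 22.4 points, above the 14.0 points inside the frequent bins themselves. At 200 to 500 kb it was 35.9% ± 4.40 and 21.9% ± 2.90, and at over 5 Mb 6.26% ± 1.45 and 3.57% ± 0.801. The class at over 5 Mb also took in the 560 bins of chromosome 19 and the 148 of 22:9, which hold no frequent bin. The difference in points was thus largest at the border of the frequent regions and smaller with distance. In relative terms the order was different, and the sets differed more at over 5 Mb than at 100 kb. Bins near a frequent bin are often of intermediate frequency, so this measure and the frequency classes overlap.

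Whole domains were also followed. The other cells defined 382 frequent domains, uninterrupted stretches of frequent bins of at least 500 kb with a median length of 1.0 Mb. High-contact cells were in contact over the full length of 55.5% to 86.4% (median 73.8%) of them and low-contact cells of 23.6% to 51.3% (median 40.3%), without overlap. This measure changed with thinning, which also changed the set of domains to 345 with a median length of 0.8 Mb. The means were then 43.1% ± 6.83 and 39.1% ± 7.09, close to each other relative to the spread between cells. The parts of depth and of the changed domains were not tested. Domains that were nearly missed, with under 20% of their bins in contact, made up 0.503% ± 0.495 in the high-contact and 4.59% ± 3.56 in the low-contact cells. The sets overlapped here, and thinning changed little, with 0.491% ± 0.619 and 3.86% ± 3.32. After thinning, low-contact cells thus nearly missed domains more often on average, while the shares of domains contacted from end to end lay within the spread between cells. Domains were not counted in the cells with 120000 to 170000 reads.

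Runs of contact also changed with thinning. The mean length of uninterrupted runs was 0.538 to 0.685 Mb (median 0.614 Mb) in the high-contact and 0.382 to 0.544 Mb (median 0.458 Mb) in the low-contact cells, with means of 0.602 Mb ± 0.0505 and 0.461 Mb ± 0.0420. The number of runs hardly differed, with 1604 ± 114 and 1582 ± 166 per cell, a difference of 21.8 that turned to -11.6 without cell 42. Runs of at least 1 Mb numbered 288 to 329 in the high-contact and 174 to 243 in the low-contact cells, without overlap. At the deposited depth the extra contacts therefore appeared as longer runs. After thinning the high-contact cells instead had more runs. In both sets runs were shorter and more numerous after thinning than before, and this change was larger in the high-contact cells. How many of the added runs were longer runs broken by lost bins was not tested. Neither depth therefore settles the form of the extra contacts. The mean length was then 0.398 Mb ± 0.0241 and 0.399 Mb ± 0.0179, and the number 2242 ± 186 and 1775 ± 138, without overlap. In cells with 120000 to 170000 reads both differed, with runs longer by 0.0661 Mb and more numerous by 206.1 in the high-contact cells.

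**Figure D5:**
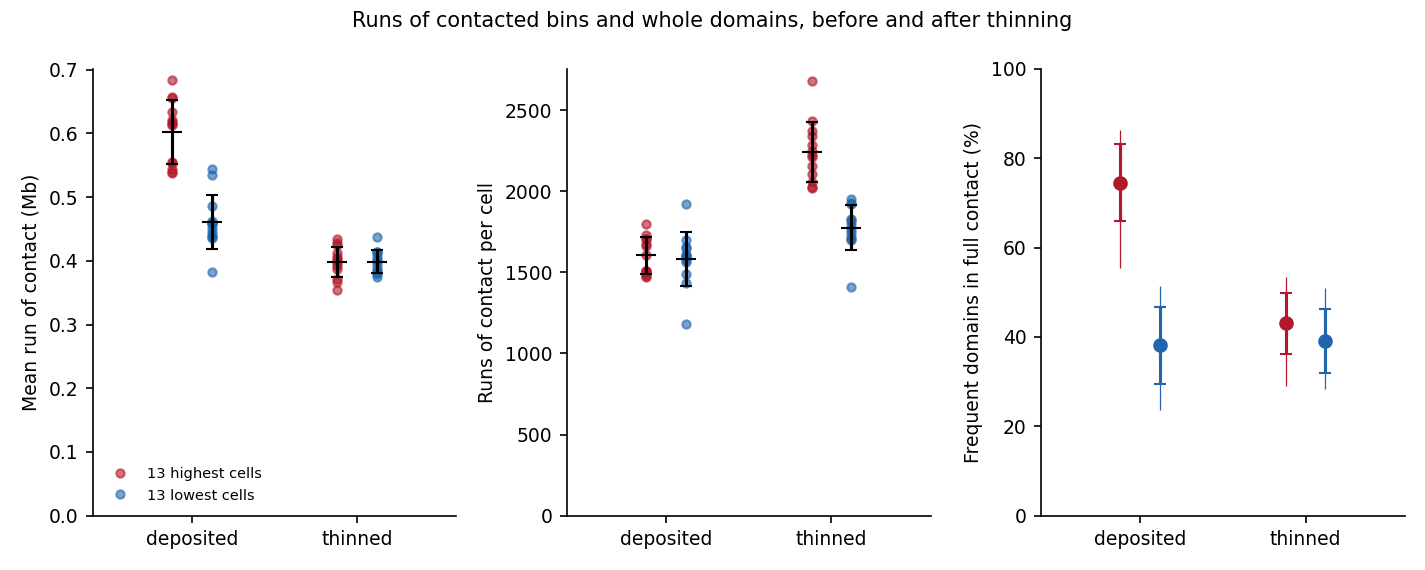
The left and middle panels give the mean length (Mb) and the number of uninterrupted runs of contacted bins in each of the 13 high-contact (red) and 13 low-contact (blue) cells, at the deposited depth and after thinning to 50978 reads, with black lines for the mean and SD. The right panel gives the mean share of frequent domains in contact over their full length (%), with thick bars for the SD and thin lines from the lowest to the highest cell. Run length and full domains differ at the deposited depth and lie close together after thinning, and run number does the opposite.

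The outermost measured parts of the chromosomes, which have little lamina contact in these cells, took part in the difference. They need not be chromosome ends, since bins without a value in every cell were left out. In the 5 Mb next to the outermost measured bins, 16.1% ± 1.41 of bins were contacted by high-contact and 10.8% ± 1.19 by low-contact cells, a difference of 5.27 points. Elsewhere the shares were 37.9% ± 1.64 and 28.7% ± 1.43, a difference of 9.25 points. The ratio of the shares was 1.49 in the outermost parts and 1.32 elsewhere, and after thinning 1.40 and 1.26.

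Whether a cell with many contacts on some chromosomes had many on others was examined by ranking cells on one set of chromosomes and reading them on another. Cells ranked on odd-numbered chromosomes and read on even-numbered ones had contact shares of 32.9% to 41.4% (median 37.5%) in the 13 highest and 23.9% to 31.5% (median 28.9%) in the 13 lowest, without overlap. The difference was 9.12 points. In the reverse direction the shares were 27.6% to 39.4% (median 32.5%) and 22.4% to 28.6% (median 25.9%), a difference of 7.07 points, with 2 of the 13 lowest cells at or above the lowest of the 13 highest. Chromosomes of a cell share its library and depth, and the part of depth in this difference was not tested.

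The threshold decided which cells counted as rich in contact. With cells ranked again at an OE of at least 2, 7 of the 13 high-contact and 12 of the 13 low-contact cells were the same, and the shares were 21.6% and 18.3%, a difference of 3.33 points. Rare bins then went the other way, with 2.36% in the highest and 2.85% in the lowest cells. Chromosomes 15 and 17 were lower in the highest cells, chromosome 2 had the largest difference at 6.39 points, and chromosome 13 differed by 4.88 points. At an OE of at least 0.5, 12 and 11 of the cells were the same and chromosome 13 led with 18.1 points. Rare bins were then at 6.07% and 2.65%. Chromosome 13 thus differed most at thresholds of 0.5 and 1 and not at 2.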

How the data were processed

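Lamin B1 contacts were measured by DamID in single KBM7 cells. The authors deposited a ratio of observed over expected signal (OE) for each cell and 100 kb bin on hg19. Cutadapt and Bowtie2 2.1.0 are named in the submitters' processing notes; what the expected signal was made from is not given in the sources used here. Of 30376 bins, 26584 had a value in every cell. All columns with values were used (0 left out).

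A read count was recovered for each value from steps common to a cell and to a bin. Of the values above 0, 100% gave a whole count within 0.02 reads, and on simulated data for 51 cells and 26584 bins 99.9965% were recovered. They may be distinct sites rather than sequenced reads. At an OE of 1, a median bin held 2.12 reads in the shallowest cell and 13.2 in the deepest, so single-bin calls there rest on few reads. Reads were thinned with a fixed seed.

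The members and lists were chosen with earlier results of these data known. Cells of 1 sample are no replicates and were selected on the readout, so no test was run; SDs are over cells. Named chromosomes are the 5 largest and 3 smallest differences. Named windows are the 6 highest and 4 lowest at least 5 Mb apart. Named cells are the 3 at each end and those beside the borders of the sets. Alternatives were OE thresholds, thinning, other set sizes, bin and window sizes, distances, rankings on other chromosomes, groups by depth and leaving out each cell. Gene content was not used here, since no hg19 annotation was at hand, and chromosome 8 and cell 47 were not analysed here. Python 3.11.15, numpy 2.4.6 and pandas 2.3.3 were used.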

Additional observations from a re-analysis of the deposited data

How the results depend on the processing

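Outside the omission of single cells, 105 of 131 values stayed within 1 SD over cells of the reported value (counts within 1.5 times), as did all 234 without a single cell. The run number difference, 21.8, was small against its SD and changed sign at an OE of at least 0.5 (-125.3), without the highest and the lowest cell (-17.25) and without cell 42 (-11.6; range without single cells -11.6 to 49.8). At an OE of at least 0.5, 38.2% of the extra contacts lay near frequent bins and run length differed by 0.230 Mb. At an OE of at least 2, contact differed by 3.33 points, 88.0% of the extra contacts lay in intermediate bins and 44.5% near frequent bins, run length differed by 0.0351 Mb, and 5.92% of windows were at least 20 points higher. With thinned reads and new ranking, intermediate bins held 55.2%, run length differed by 0.00283 Mb, run number by 452, and 9.71% of windows passed. With thinned reads and the same cells, intermediate bins held 55.3%, run length differed by -0.000575 Mb, also a change of sign, run number by 468, and 9.45% of windows passed. Windows passing were 26.9% with 5 cells a set and 5.06% with 25. In 500 kb bins, 28.1% lay near frequent bins and run length differed by 0.330 Mb. Contact share differed by 4.30 and 5.02 points in the middle and highest groups of 17 cells by bins at 0, and by 5.26 in the lowest by reads. With frequencies from all 51 cells, intermediate bins held 58.7%. Within 200 kb and 1 Mb of frequent bins lay 21.7% and 41.8%. In cells with 120000 to 170000 reads, added after seeing the data, run number differed by 206.1. The causes were not tested, beyond what each setting changes by construction. Class results were not run with 25 cells a set, which leaves 1 other cell.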
